A study of Homo sapiens with 4 samples.

Results

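Hedgehog signalling was examined in HEK293 cells through 9 genes: the receptor SMO (Smoothened), the ligand receptor PTCH1, the transcription factors GLI1, GLI2 and GLI3, their inhibitor SUFU, and the ligands SHH, IHH and DHH. Members were found through the RefSeq accession in each probe name. All 9 were on the array, each as 1 target of 3 probes, which made 27 of 71998 probes and 9 of 17217 named genes. The 4 samples were untreated HEK293 cultures of 1 group, grown in medium with serum. Each was hybridised as oligo(dT)-primed cDNA in a single colour to an oligonucleotide array of a 4-plex layout, which takes 4 samples. Which samples shared a slide was not stated in the paper. By the study's methods each sample was a separate plate, extracted at confluence. HEK293 is a single human embryonic kidney line transformed with adenovirus DNA, so that the 4 replicates were plates of 1 line and not different donors. The labels give its cell type as normal, although it is immortalized. There was no treated group, no ligand and no SMO agonist or inhibitor. The comparison that the design allows is therefore each gene against a baseline set from control genes on the same array. That baseline lies above the mean of the control genes, which the paper took to stand for zero expression.

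Hedgehog ligands are secreted lipid-modified proteins that bind Patched at the cell surface. Without ligand, Patched keeps Smoothened, a class F receptor related to the Frizzleds, out of the primary cilium, and protein kinase A and SUFU hold the GLI proteins in repressor or inactive form. Ligand binding releases Smoothened, GLI proteins become activators, and PTCH1 and GLI1 are themselves among their best known target genes. In the kidney the pathway is known from the collecting system and the ureter, where SHH from the epithelium acts on surrounding mesenchyme.

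One stretch of DNA is shown because the window before a start of PTCH1, a known GLI target, holds the letters of the consensus that GLI proteins are known to bind. The sequence of SMO is given as the other detected receptor of the pathway. Both are from RefSeq (GRCh38.p14) and give the 250 bases before an annotated start, 5′ to 3′ on the gene's strand. Capitals mark TGGGTGGTC, the other-strand reading of the GLI-binding letters GACCACCCA. The PTCH1 window lies at chr9:95509267-95509516 on the minus strand and the SMO window at chr7:129188383-129188632 on the plus strand.
PTCH1: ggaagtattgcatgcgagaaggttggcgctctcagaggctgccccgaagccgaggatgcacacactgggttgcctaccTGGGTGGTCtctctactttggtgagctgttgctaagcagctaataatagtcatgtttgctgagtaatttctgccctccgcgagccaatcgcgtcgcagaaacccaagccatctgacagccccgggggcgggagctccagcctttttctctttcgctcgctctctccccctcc
SMO: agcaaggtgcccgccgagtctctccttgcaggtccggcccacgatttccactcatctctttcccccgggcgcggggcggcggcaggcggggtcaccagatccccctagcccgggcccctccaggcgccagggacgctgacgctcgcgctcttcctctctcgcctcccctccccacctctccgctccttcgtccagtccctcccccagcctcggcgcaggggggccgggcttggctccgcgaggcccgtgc

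The match in PTCH1 ran from 172 to 164 bases before that start. The letters were searched on both strands in the table's windows of 300 bases, which run from 250 before to 50 after a start. They were in 83 of 35116 windows (0.236%), and among the 12 windows of the 7 members in the table they were in this 1 window. PTCH1 has 5 annotated starts in the table, and the windows of its other 4 did not hold these letters. The GC content of the SMO window of 300 bases was 72.0% with 29 CpG dinucleotides, against medians of 58.7% and 14.0 over all windows. SUFU had 65.7% with 20 and IHH 76.3% with 37, while SHH had 43.3% with 7. DHH had 61.0% with 12, and the PTCH1 window with the GLI-binding letters 57.0% with 13. The matches are descriptions of letters and were not tested as binding sites.

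Of the 9 genes, 5 were detected: PTCH1, SMO, SUFU, GLI3 and GLI2. The rule for detection subtracts a baseline from a gene's log2 value on each array, namely the mean plus 2 SD of seminal-protein genes thought to be silent in these cells, and calls a gene detected when the mean distance over the arrays is above 0. Of the matched controls, SPATA5 and SPATA13 had mean log2 levels of 9.97 and 9.72, against 6.53 to 7.25 for the other 8. Without SPATA5 and SPATA13 the baseline averaged 7.78 in place of 10.10 log2 units, so calls near the threshold turn on these controls. As background, 52.7% of all named genes were detected, so that 5 of 9 was near the share of genes at large. On all 4 arrays 4 members lay above the baseline, against 45.0% of all named genes, and a one-sided limma test of the distances, adjusted over all named genes, called 3 (SMO, PTCH1 and SUFU), against 45.9%. The median distance was 0.062 log2 units over the 9 members and 0.26 over all named genes. Probes differ in affinity, and a distance therefore shows where a gene stands against the baseline and not how many transcripts it has beside another gene. Because cultures were measured in bulk, fewer cells with a message and less message per cell cannot be told apart.

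**Figure D1:**
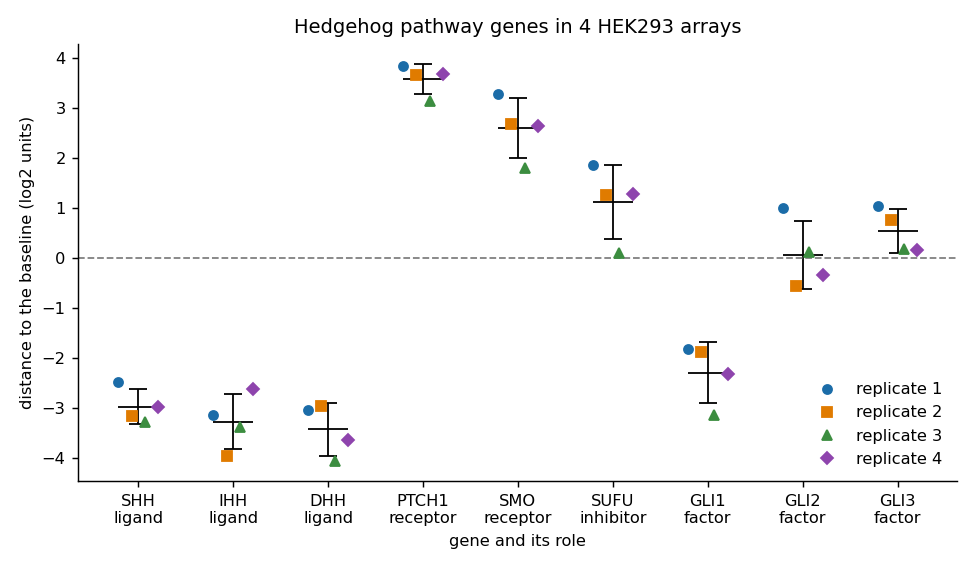
Distance to the baseline in log2 units (vertical axis, 0 dashed) for the 9 genes on the 4 arrays (coloured points), with the mean as a horizontal bar and the SD over the 4 arrays as error bars. PTCH1, SMO, SUFU and GLI3 lay above 0 on every array, GLI2 lay on both sides of it, and GLI1 and the 3 ligands lay below it on every array.

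The arrays differed in their baselines, which were 9.47, 9.94, 10.69 and 10.32 log2 units in the order of replicates 1 to 4. Replicate 1, with the lowest baseline, gave the largest distance of most members, and replicate 3, with the highest, the smallest. Levels themselves were steadier, with a median SD over the arrays of 0.42 log2 units against 0.63 for distances, over all named genes. Among the members IHH went the other way, with 0.81 for levels and 0.56 for distances. Pearson's r between arrays across genes, which are not independent replicates, was 0.949 to 0.977, and is the same for levels and distances. The cells' identity was set against marker lists: both epithelial keratins, all 8 reference genes, 3 of 3 neuronal filament genes and 4 of 6 kidney progenitor genes were detected, while 0 of 9 mature kidney, 0 of 3 endothelial, 0 of 4 blood and 1 of 6 fibroblast genes were. Over all named genes 52.7% were detected, 45.0% lay above the baseline on all 4 arrays and 45.9% passed the limma test. Of the progenitor genes, 1 lay above the baseline on all 4 arrays and 2 passed the limma test. Of the neuronal filament genes 2 did each, and of the fibroblast genes 0. NEFM, counted among the detected filament genes, stood at 0.66 ± 3.08 log2 units (SD, n = 4). Its levels were 13.57, 8.32, 13.09 and 8.08 on replicates 1 to 4. COL1A1, the detected fibroblast gene, had 11.34, 9.75, 11.36 and 9.42.

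The ligands came out near the level of the control genes. SHH, the best studied of them, had log2 levels of 6.99, 6.79, 7.42 and 7.34 on replicates 1 to 4. IHH, which acts in growing cartilage and gut, had 6.34, 5.98, 7.32 and 7.70. DHH, made by Sertoli cells and nerve sheath cells, had 6.42, 6.98, 6.62 and 6.69. All 12 values fell between 5.98 and 7.70, beside 6.05 to 7.72 for the 8 lower control genes over the arrays. Taken array by array, SHH and DHH lay within the range of those genes on all 4 arrays, and IHH on 2, with 1 array below it (replicate 2) and 1 above it (replicate 4).

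Set against the baseline, SHH stood at -2.97 ± 0.35 log2 units, IHH at -3.27 ± 0.56 and DHH at -3.42 ± 0.52 (SD, n = 4 arrays for each). Each of the 3 lay below it on every array, and none of their 36 probe values (12 for each gene) reached it. The levels of IHH and SHH, and also those of PTCH1, were higher on replicates 3 and 4 than on replicates 1 and 2, without overlap. The other members were not divided in this way. With 2 arrays on a side, such a division alone does not show a difference between the pairs, and its share over all named genes is not given here. The array distributions differed between the same pairs at their low end: the lower quartile of all probes was 6.77 on replicates 1 and 2 and 7.37 on replicates 3 and 4. The medians of all probes were 9.40 on replicates 1 and 2 and 9.39 on replicates 3 and 4. The levels of PTCH1, at 13.32 to 14.00, lay above these medians and those of the ligands below. The part of that floor in these values was not tested. Under all 7 baselines tried the 3 ligands kept a negative mean distance.

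PTCH1, the twelve-pass membrane protein that binds Hedgehog ligands and restrains Smoothened, was clearly above the baseline. Its log2 levels were 13.32, 13.60, 13.83 and 14.00 on replicates 1 to 4, and its distances 3.85, 3.66, 3.14 and 3.68. The mean distance was 3.58 ± 0.30 log2 units (SD, n = 4), and the arrays differed little beside it. All 12 of its probe values were above the baseline of their array.

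The probes of PTCH1 kept their order, the third brightest and the first dimmest, on each of the 4 arrays. The first probe ran from 11.89 on replicate 1 to 13.68 on replicate 4, while the third stayed between 13.93 and 14.30. The difference between the brightest and the dimmest probe averaged 1.35 log2 units, and 36.5% of targets had a smaller one. Left out singly, the arrays moved the mean distance between 3.50 and 3.73, and the baselines tried moved it between 2.27 and 5.91.

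SMO, the seven-transmembrane receptor that passes the signal on, was above the baseline on all 4 arrays. Its log2 levels of 12.75, 12.63, 12.49 and 12.96 were close to each other, with an SD of 0.20. The distances of 3.28, 2.69, 1.80 and 2.64 varied more, with a mean of 2.60 ± 0.61 log2 units (SD, n = 4), since they also carry the differences between the arrays' baselines. SMO remained above every baseline tried, from 1.29 with 3 SD to 4.93 without the control genes SPATA5 and SPATA13.

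SMO's signal rested on its probes unequally. The second probe was the brightest on every array, between 13.38 and 13.98, and the first lay between 12.06 and 12.60. The third had 10.76, 10.63, 8.83 and 11.28 on replicates 1 to 4, and on replicate 3 it was the only SMO probe value below its array's baseline. The brightest and the dimmest probe differed by 3.34 log2 units on average, more than in 86.0% of targets, where the median over all targets was 1.67. With the median of the probes in place of their mean, SMO stood at 2.31.

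**Figure D2:**
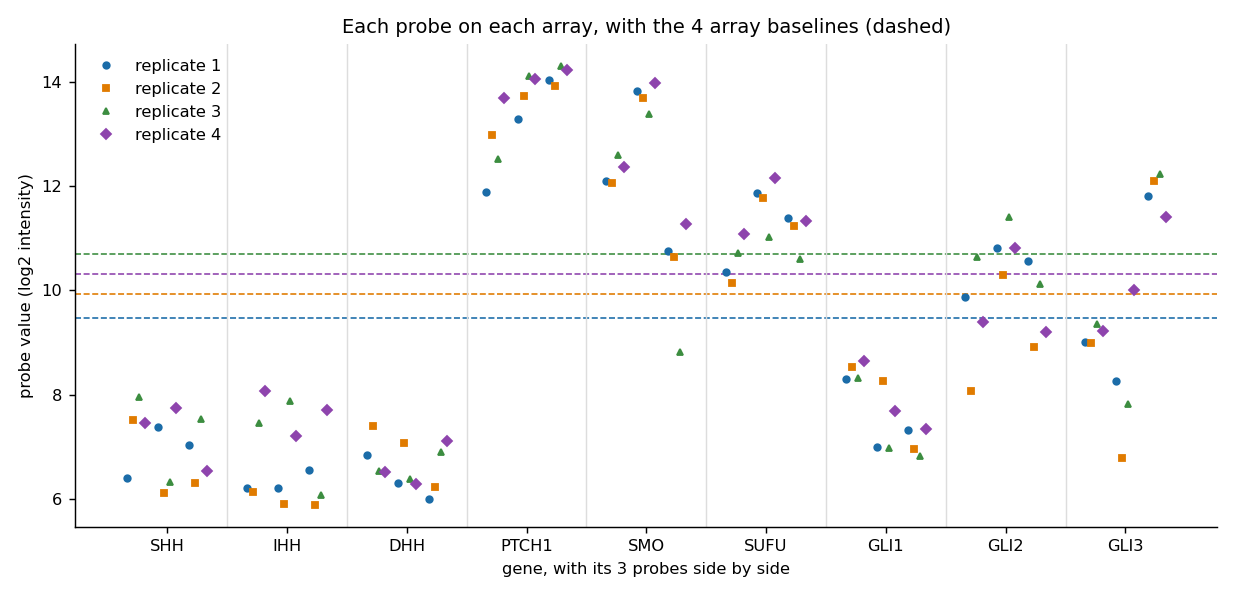
Log2 intensity of each of the 27 probes (3 columns for each gene, in file order) on the 4 arrays (points), with the baseline of each array as a dashed line in its colour. The 3 probes of the ligands and of GLI1 lay below all baselines, those of PTCH1 above all of them, and of GLI3 only the third probe exceeded the baseline of its own array.

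SUFU binds GLI proteins and keeps them out of the nucleus. Its log2 levels were 11.33, 11.20, 10.79 and 11.60 on replicates 1 to 4, lowest on replicate 3, where the baseline was also highest. The distances were accordingly 1.86, 1.26, 0.10 and 1.28, all positive, but that of replicate 3 lay at the threshold itself. The mean was 1.13 ± 0.74 log2 units (SD, n = 4, limma adjusted p = 0.00162).

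Of the 12 probe values of SUFU 11 were above the baseline, the exception being the third probe on replicate 3, and the second was the brightest on every array. The call of SUFU held with each replicate left out, at 0.88 to 1.47. On replicates 3 and 4 alone it was 0.69 with a limma adjusted p of 0.113, and with a baseline of 3 SD it fell to -0.19.

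The GLI factors, the pathway's DNA-binding end, differed from each other in how they stood to the baseline. GLI1, which acts as an activator and whose message reports GLI activity in many cells, had log2 levels of 7.66, 8.06, 7.55 and 8.0 on replicates 1 to 4. Its distances were -1.81, -1.88, -3.14 and -2.32, all below the baseline, with a mean of -2.29 ± 0.61 log2 units (SD, n = 4). None of its 12 probe values reached the baseline, and the first probe, the brightest on every array, ran from 8.31 to 8.64.

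GLI1 nevertheless lay above the highest of the 8 lower control genes on 3 of 4 arrays, replicate 3 being the exception. Without SPATA5 and SPATA13 among the controls it came to lie on the baseline, at 0.039 ± 0.40 (SD, n = 4, limma adjusted p = 0.603). With olfactory receptor genes as controls it was -0.20. A message of GLI1 below what these probes can separate from zero would not have been detectable here.

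GLI2, the main activator of the pathway, was at the threshold of the study's rule and at 2.39 without SPATA5 and SPATA13. Its log2 levels were 10.47, 9.39, 10.82 and 9.99 on replicates 1 to 4, and its distances 1.0, -0.55, 0.13 and -0.33. The mean was 0.062 ± 0.69 log2 units (SD, n = 4, limma adjusted p = 0.825), and 2 of 4 arrays lay on either side. By the mean it counted as detected, and without replicate 1 it stood at -0.25 and did not.

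Plates 1 and 3 had higher levels of GLI2 than plates 2 and 4, without overlap. GLI1 and DHH were divided the other way, with plates 2 and 4 above plates 1 and 3, and the remaining 6 members were not divided by these plates. On replicates 1 and 3 alone GLI2 stood at 0.56 and on replicates 2 and 4 alone at -0.44. With 2 arrays on a side, such a division alone does not show a difference between plates. Its share over all named genes is not given here, and its cause was not tested. Of the 12 probe values of GLI2, 6 were above the baseline, 4 of them from its second probe, which was the brightest on every array.

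GLI3, best known as the source of the pathway's repressor, had steady log2 levels of 10.52, 10.70, 10.88 and 10.49 on replicates 1 to 4, with an SD of 0.18. Its distances were 1.05, 0.76, 0.19 and 0.17, positive on each array, with a mean of 0.54 ± 0.43 log2 units (SD, n = 4, limma adjusted p = 0.129). Its detection came from 1 probe. The third probe had 11.81, 12.09, 12.22 and 11.40, whereas the first lay between 9.0 and 9.36 and the second between 6.78 and 10.01.

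The third probe gave all 4 of the probe values of GLI3 above the baseline, with the other 8 below it. The gap between its brightest and dimmest probe averaged 3.86 log2 units, more than in 90.8% of targets. As a result the call turned with the summary of the probes: the mean of the log2 values gave -0.023 and the median -0.63. Which of the probes reflects the message of GLI3 was not tested.

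The height of the baseline decided where GLI1, GLI2, GLI3 and SUFU fell, but not the other 5 members. With 1 SD in place of 2 SD the same count of 5 genes was detected, and GLI2 then stood at 1.38 and GLI3 at 1.86. With 3 SD, 2 remained, PTCH1 and SMO. With olfactory receptor genes as controls, the 5 had distances from 2.15 for GLI2 to 5.67 for PTCH1.

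**Figure D3:**
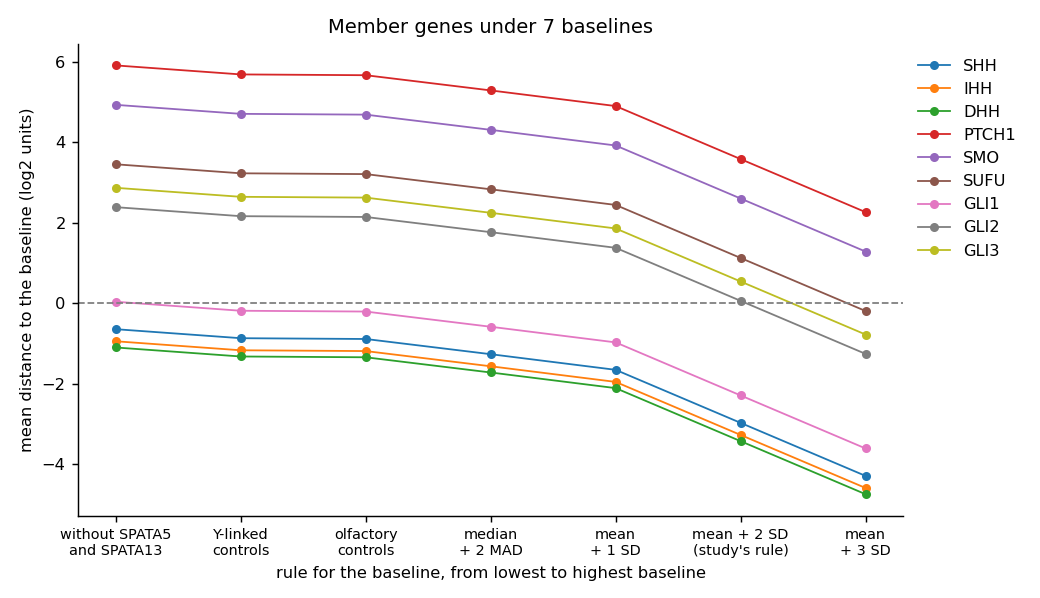
Mean distance to the baseline in log2 units over the 4 arrays (vertical axis, 0 dashed) for the 9 genes (lines) under 7 rules for the baseline, ordered from the lowest baseline to the highest. PTCH1 and SMO stayed above 0 throughout, SUFU, GLI2 and GLI3 crossed it only with 3 SD, GLI1 reached it only with the lowest baseline, and the 3 ligands stayed below.

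Other genes of the pathway were taken from a list grouped by role, of which 48 of 49 were matched and ULK3 was not. Of these, 34 (70.8%) were detected, against 52.7% of all named genes. On all 4 arrays 29 lay above the baseline, against 45.0%, and the limma test called 29, against 45.9%, with a median distance of 1.24 log2 units against 0.26 for all named genes. Genes of the list were not chosen to represent all genes, and many also serve other pathways. The count ranged from 23 with a baseline of 3 SD to 45 without SPATA5 and SPATA13 or with Y-linked controls, while the share of all named genes detected moved from 39.1% to 74.0% and 71.6%.

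Ligand processing and release gave 3 of 5 detected genes (60%), against 52.7% of all named genes. On all 4 arrays 1 of the 5 lay above the baseline (20%), against 45.0%. HHAT, the enzyme that attaches palmitate to Hedgehog proteins, stood at 2.33 ± 0.47 log2 units (SD, n = 4) and above the baseline on all 4 arrays. DISP1, which releases the ligand from the producing cell, had a distance of 0.55 ± 0.63 (SD, n = 4, limma adjusted p = 0.121). The SCUBE proteins carry the released ligand, and SCUBE3 stood at 0.34 ± 0.39, SCUBE2 at -0.27 ± 1.07 and SCUBE1 at -1.78 ± 0.67 (SD, n = 4 for each), of which SCUBE1 alone was below the baseline on all 4 arrays.

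Among co-receptors and surface antagonists 4 of 6 were detected (66.7%), against 52.7% of all named genes. On all 4 arrays 3 of the 6 lay above the baseline (50%), against 45.0%. GPC3, a glypican that competes with PTCH1 for ligand, stood at 4.47 ± 0.78 log2 units (SD, n = 4). The ligand-binding co-receptor GAS1 stood at 1.91 ± 1.01 (SD, n = 4), with 3.40, 1.67, 1.25 and 1.30 on replicates 1 to 4. The endocytic receptor LRP2 was above the baseline on all 4 arrays, and the co-receptor CDON, at 0.17 ± 0.57 (SD, n = 4, limma adjusted p = 0.611), on replicate 1 only. Its relative BOC had -0.75, -0.77, -2.65 and -1.03 on replicates 1 to 4, below the baseline on each and lowest on replicate 3, with a mean of -1.30 ± 0.91 (SD, n = 4). The ligand-binding antagonist HHIP, which like PTCH1 and GLI1 is a GLI target gene in many tissues, stood at -2.09 ± 1.03 (SD, n = 4) and below the baseline on every array. Of PTCH1, GLI1 and HHIP, PTCH1 was thus the one detected.

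Genes for the cilium and for the movement of SMO gave 9 of 12 detected, each of the 9 on all 4 arrays. Over all named genes these shares were 52.7% and 45.0%. The highest distances were those of ARRB2, an arrestin that helps SMO into the cilium, at 4.79 ± 0.64 log2 units, and TULP3, an adaptor that carries receptors into it, at 3.10 ± 0.75 (SD, n = 4 for each). The intraflagellar transport genes IFT88 and IFT172, the motor KIF3A, the negative regulators RAB23 and GPR161, and MGRN1 and INPP5E were detected as well. The paper also reports message of the smoothened receptor in HEK293 cells, and significant message of the arrestin ARRB2. In contrast, it lists GPR161 among receptors that did not reach significant levels in its HEK293 data. The source of this difference for GPR161 was not tested. EVC and EVC2, which form a complex near the base of the cilium and bind active SMO, were not detected, with EVC2 at -3.03 ± 0.98 (SD, n = 4). GRK2, a kinase that phosphorylates SMO and is widely expressed, stood at -3.50 ± 0.68 (SD, n = 4), with levels of 6.46 to 6.79.

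Genes for GLI processing and degradation gave 11 of 12 detected, 10 of them on all 4 arrays, beside 52.7% and 45.0% of all named genes. PRKAR1A, a regulatory subunit of protein kinase A, stood at 4.20 ± 1.01 log2 units and GSK3B, which phosphorylates GLI proteins after that kinase, at 4.00 ± 0.48 (SD, n = 4 for each). The catalytic subunits PRKACA and PRKACB, the scaffold KIF7, STK36, CSNK1A1, BTRC, CUL1 and the GLI-binding adaptor SPOP were detected too. The kinase DYRK2 had a distance of 0.45 ± 0.84 (SD, n = 4, limma adjusted p = 0.207). The gene not detected was CUL3, the cullin that works with SPOP and is found in most cells, at -2.55 ± 0.38 (SD, n = 4) and below the baseline on all 4 arrays. Whether GRK2 and CUL3 are low in the cells or their probes hybridise poorly was not tested, so that a place below the baseline is not by itself absence of a message.

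Genes listed as GLI targets in other tissues gave 7 of 13 detected (53.8%), near the 52.7% of all named genes. On all 4 arrays 6 of the 13 lay above the baseline, against 45.0% of all named genes, and the limma test called 6, against 45.9%. The cyclins CCND2 and CCND1 stood at 4.54 ± 0.71 and 3.48 ± 0.79 log2 units (SD, n = 4 for each), and JAG2, FOXF2, SNAI1, OLIG2 and NKX2-2 were detected too. NKX2-2 was the detected gene that met neither of these stricter rules. FOXL1 and FOXA2, forkhead factors of gut mesenchyme and floor plate, stood at -1.39 ± 1.34 and -1.23 ± 0.97 (SD, n = 4 for each). The others below the baseline by their mean were FOXF1, NKX6-1, MYCN and BCL2. All of these genes answer to other signals as well, and the series holds no treatment that would tell which signal acts.

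**Figure D4:**
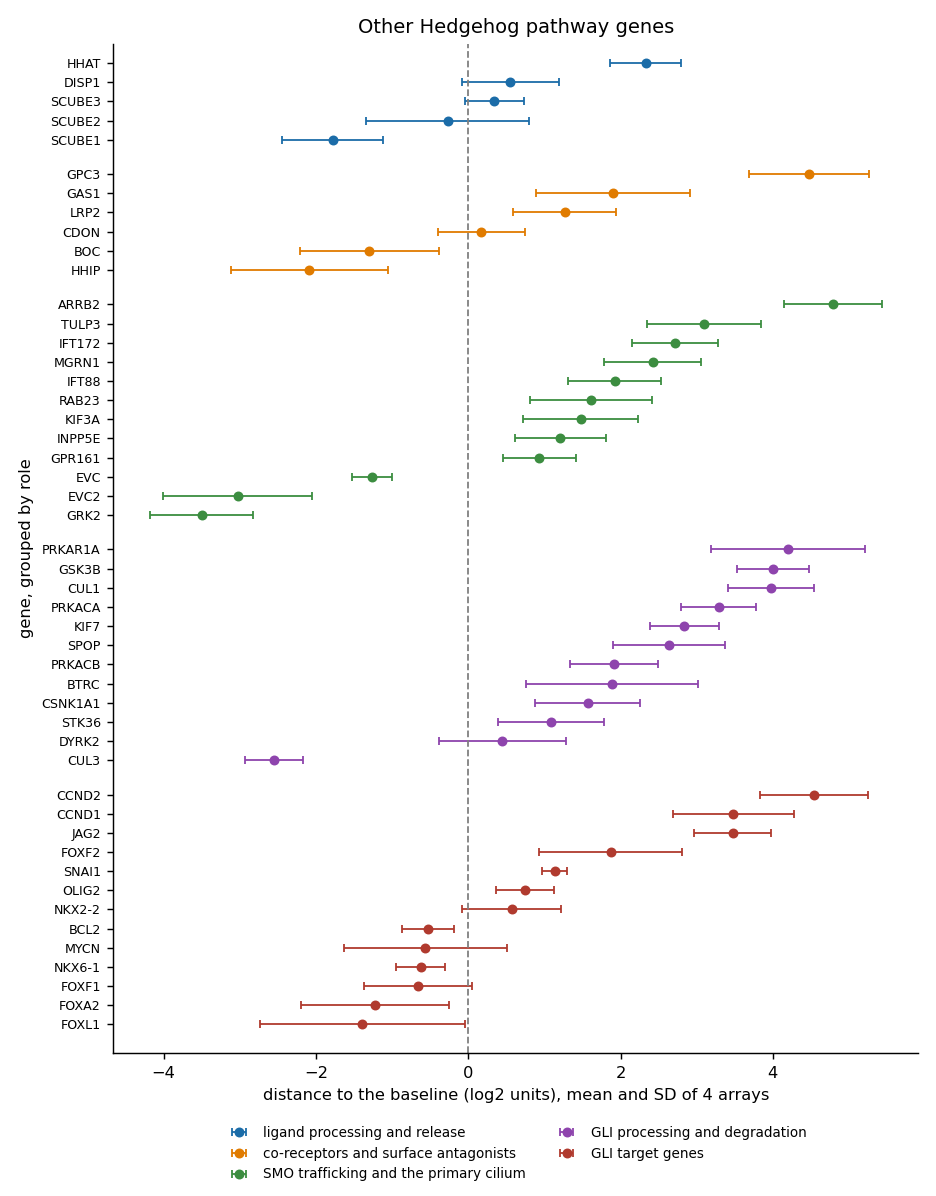
Mean distance to the baseline in log2 units (horizontal axis, 0 dashed) with the SD over the 4 arrays for the 48 matched genes of the wider pathway, grouped and coloured by role. Detected genes lie to the right of 0: 11 of 12 for GLI processing, 9 of 12 for SMO trafficking and the cilium, 7 of 13 for targets, 4 of 6 for co-receptors and antagonists and 3 of 5 for ligand processing.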

How the data were processed

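Total RNA of 4 HEK293 plates was hybridised in a single colour to NimbleGen arrays of long oligonucleotides designed on HG18. The authors deposited 1 log2 intensity per probe and array. The submitters' processing notes name RMA, a method with background correction and quantile normalization, without version or step. Sorted values matched within the pair of replicates 1 and 2 (99.97% of ranks within 0.01) and the pair of replicates 3 and 4 (99.99%), and between pairs did not. No 2 arrays shared more than 8 identical probe values. Raw intensities were not used here, and the number of arrays limits the precision.

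Accessions were matched without versions to the RefSeq gene table of GRCh38.p14, used for names only, which named 19125 of 24000 targets (17217 genes). A target was the log2 of the mean of its linear probe values, and a gene the mean of its targets. Controls were the study's 11 seminal genes, of which 10 were matched. Distances were tested one-sided against 0 in limma 3.58 (R 4.3), and p-values were adjusted by Benjamini-Hochberg over all named genes. All genes shared a standard error of 0.351, and a baseline moves all genes of an array together, so p-values are printed only near the threshold. With 4 arrays, the smallest p of an exact one-sided sign-flip test is 0.0625. The procedure was tested on simulated data, in which values were independent and genes without signal lay well below the baseline. That setting cannot show the effect of a baseline shared by all genes of an array.

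A few genes of the wider list are not reported here and enter no count of it. Members and lists were chosen with earlier results of these data known. Named with values were the members and, per role of the wider list, the 2 genes with the largest and the 2 with the smallest distance and any within 0.5 of the baseline. No gene was sought for likeness to a member over the 4 arrays. The table held 7 members' promoter windows. Alternatives changed the baseline, its controls, the summary of probes and targets, the normalization, the limma prior, a filter on low genes and the arrays used.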

Additional observations from a re-analysis of the deposited data

Results flagged for a closer look

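The distance of BOC, a co-receptor for Hedgehog ligands, was -2.65 log2 units on replicate 3 and between -1.03 and -0.75 on the other arrays. The gap from replicate 3 to the nearest array was 0.857 of the whole range, above the critical value of Dixon's test for 4 samples, and without replicate 3 the mean was -0.85. Of 62 sets of 4 values so examined this was the 1 past that value, and chance alone marks about 1 in 20.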

How the results depend on the processing

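The alternatives of replicates 1 and 3 alone and replicates 2 and 4 alone, were chosen after seeing the data. No paired analysis was possible because the series holds 1 group. Over the settings run, 155 member distances kept sign and side of the limma threshold, 10 changed sign, 10 gained and 2 lost significance. For the wider list these were 375, 36, 26 and 1, and its count of detected genes stayed within 1.5 times of 34. The median probe range of the members stayed within the spread between arrays. The cause of a change was not tested beyond what each setting alters.

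The count of 5 detected members was 2 with 3 SD, 3 with the median of probes and 3 by limma (also with a trend and robust prior, or with low genes left out), and 4 to 5 with a replicate left out. With 3 SD, SUFU stood at -0.19, GLI2 at -1.26, GLI3 at -0.77, CDON at -1.14, DISP1 at -0.76, DYRK2 at -0.87 and SCUBE3 at -0.97. With 1 SD, GLI2 stood at 1.38, GLI3 at 1.86, FOXA2 at 0.092, BOC at 0.018 and SCUBE2 at 1.05. Without SPATA5 and SPATA13 it was 0.039 for GLI1, 2.39 for GLI2, 2.87 for GLI3, 1.10 for FOXA2, 0.93 for FOXL1, 0.24 for HHIP, 1.03 for BOC, 0.55 for SCUBE1 and 2.06 for SCUBE2. Y-linked controls gave 2.17 for GLI2, 2.65 for GLI3, 0.88 for FOXA2, 0.71 for FOXL1, 0.018 for HHIP, 0.80 for BOC, 0.32 for SCUBE1 and 1.83 for SCUBE2. Olfactory receptor controls gave 2.15 for GLI2, 2.63 for GLI3, 0.86 for FOXA2, 0.69 for FOXL1, 0.78 for BOC, 0.30 for SCUBE1 and 1.81 for SCUBE2. The median plus 2 MAD gave 1.77 for GLI2, 2.25 for GLI3, 0.48 for FOXA2, 0.31 for FOXL1, 0.41 for BOC and 1.44 for SCUBE2.

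With the mean of log2 probe values GLI3 stood at -0.023. With the median of probes GLI2 stood at -0.091, GLI3 at -0.63 and DYRK2 at -0.42. On replicates 3 and 4 alone SUFU stood at 0.69, GLI2 at -0.10, CDON at -0.050 and DYRK2 at -0.11, and on replicates 1 and 2 alone SCUBE2 at 0.21. On replicates 1 and 3 alone SUFU stood at 0.98 and SCUBE2 at 0.50, and on replicates 2 and 4 alone GLI2 at -0.44 and CDON at -0.12. With a replicate left out, GLI2 ranged from -0.25 to 0.27, CDON from -0.11 to 0.30 and SCUBE2 from -0.62 to 0.21.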
